A study of Mus musculus with 30 samples.

Results

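The TGF-beta ligands, their receptors and the latent binding proteins were followed as 9 genes in cultured mouse aortic smooth muscle cells in which the long noncoding RNA CASC15 was knocked down or overexpressed. The genes were the ligands Tgfb1, Tgfb2 and Tgfb3, the receptors Tgfbr1, Tgfbr2 and Tgfbr3, and the latent TGF-beta binding proteins Ltbp1, Ltbp2 and Ltbp3. They were chosen by name and matched through Ensembl identifiers, and make up 9 of the 78334 gene identifiers counted. Ltbp4, the remaining latent binding protein, was read beside them.

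RNA from 30 libraries in 9 groups was sequenced in 2 runs, each with its own controls, as paired reads of 75 bp. Serum was withheld for 48 h in all groups, and transfection, with material at 1 µg/mL, lasted at least 24 h. Run 2 held a control antisense oligonucleotide (2 libraries), an antisense oligonucleotide against total CASC15 (2), a control plasmid (3) and a plasmid for total CASC15 (3), all without further treatment. Run 3 held 5 groups of 4 libraries: the control antisense oligonucleotide alone, with angiotensin II at 10 ng/ml for 24 h, or with PDGF-BB, a growth factor for mesenchymal cells, at 10 to 30 ng/ml for 24 h, and an antisense oligonucleotide against long CASC15 alone or with the same angiotensin II. The antisense oligonucleotides were GapmeRs, DNA-centred oligonucleotides that direct RNase H to a matching RNA. No knockdown cells received PDGF-BB. In the titles of the libraries with CASC15 targeted, the number after CASC counts up from library to library, so groups were taken from the library names in the descriptions. The culture protocol speaks of mouse and of rat aortic cells, and which transcripts "total" and "long" stand for is not given in the sources used here. Each library carries a batch label from P16 to P19, with at most 1 library of a group in a batch. Whether batches were separate cultures is not said, so p-values measure the spread between these libraries, which may be technical.

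TGF-beta is secreted in a latent form, in which the mature dimer stays wrapped in its own propeptide, and the propeptide is usually bound to a latent binding protein that tethers the complex to fibrillin and fibronectin fibres. Integrins, proteases and thrombospondin release the ligand. The freed ligand binds the type II receptor (Tgfbr2), which recruits and phosphorylates the type I receptor kinase (Tgfbr1), and the type I receptor phosphorylates Smad2 and Smad3. The type III receptor, betaglycan (Tgfbr3), presents ligand and matters most for TGF-beta 2, which binds the type II receptor weakly on its own. In arterial smooth muscle the pathway is known for driving contractile genes and matrix, and loss of function in its ligands, receptors or binding partners is known from aortic aneurysm disorders.

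To show how different the upstream regions of these genes are, the 250 bases before the RefSeq start are given for 5 genes whose levels the comparisons turn on; 7 of the 9 genes had an entry, and Tgfb3 and Tgfbr3 had none. Capitals mark matches, on either strand, to 7 motifs. The SMAD box, the core that activated SMAD proteins bind, was searched as CAGAC. The AP-1 site, bound by Fos and Jun proteins, was searched as TGANTCA. The cyclic AMP response element, or CRE, was searched as TGACGTCA. The E-box, bound by helix-loop-helix factors, was searched as CACGTG. The GC box, bound by Sp1 and its relatives, was searched as GGGCGG. The TATA box that positions the polymerase was searched as TATAAA. The CCAAT box is bound by the NF-Y complex and was searched by those letters. No matches overlapped in the windows shown. Where Tgfbr1 and Ltbp1 had more than 1 window, the first is shown. All coordinates are of build GRCm38.p6.
Tgfb1, chr7:25686752-25687001, plus strand: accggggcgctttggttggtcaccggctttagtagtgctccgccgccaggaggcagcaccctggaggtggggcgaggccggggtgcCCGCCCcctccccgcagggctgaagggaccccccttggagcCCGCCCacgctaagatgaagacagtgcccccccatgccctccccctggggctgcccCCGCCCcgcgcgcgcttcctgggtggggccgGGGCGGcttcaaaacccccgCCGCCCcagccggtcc
Tgfb2, chr1:186705990-186706239, minus strand: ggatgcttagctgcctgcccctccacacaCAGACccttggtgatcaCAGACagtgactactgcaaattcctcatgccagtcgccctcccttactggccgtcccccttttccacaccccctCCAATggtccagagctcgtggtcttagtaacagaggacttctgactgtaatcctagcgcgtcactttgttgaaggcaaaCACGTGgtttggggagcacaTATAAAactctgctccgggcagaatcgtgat
Tgfbr1, chr4:47352972-47353221, plus strand: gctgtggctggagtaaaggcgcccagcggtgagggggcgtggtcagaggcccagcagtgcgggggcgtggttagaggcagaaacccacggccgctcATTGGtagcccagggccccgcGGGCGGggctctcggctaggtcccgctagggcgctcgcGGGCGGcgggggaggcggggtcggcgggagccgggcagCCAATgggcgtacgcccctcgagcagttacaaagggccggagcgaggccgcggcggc
Tgfbr2, chr9:116175364-116175613, minus strand: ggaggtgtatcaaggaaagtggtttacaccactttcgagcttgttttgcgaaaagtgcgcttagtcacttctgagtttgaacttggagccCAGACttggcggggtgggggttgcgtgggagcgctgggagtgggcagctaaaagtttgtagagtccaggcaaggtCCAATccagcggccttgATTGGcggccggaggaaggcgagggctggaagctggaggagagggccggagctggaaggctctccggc
Ltbp1, chr17:75005279-75005528, plus strand: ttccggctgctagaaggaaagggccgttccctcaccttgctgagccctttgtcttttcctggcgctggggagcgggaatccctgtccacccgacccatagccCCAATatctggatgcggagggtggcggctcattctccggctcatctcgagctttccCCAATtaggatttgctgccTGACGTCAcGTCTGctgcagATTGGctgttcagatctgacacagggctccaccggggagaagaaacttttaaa
Tgfb1 held 5 GC boxes and none of the other motifs, whereas Tgfb2 held a TATA box 31 bases before the start, an E-box, a CCAAT box and 2 SMAD boxes. Tgfbr1 held 2 GC boxes and 2 CCAAT boxes, and Tgfbr2 held 1 SMAD box and 2 CCAAT boxes. Ltbp1 held a CRE, a SMAD box next to it and 3 CCAAT boxes. Of 32851 mouse windows of the same length, 42.2% held a SMAD box, 6.75% an AP-1 site, 1.55% a CRE, 6.02% an E-box, 32.7% a GC box, 12.4% a TATA box and 33.8% a CCAAT box. These matches describe letters only.

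Library totals ran from 18007184 to 21881948 expected counts in run 2 and from 15771489 to 30362053 in run 3. Levels are given as CPM, counts scaled to library size scaled with TMM factors, as mean ± SD over the libraries of a group. A gene was called changed at an adjusted p under 0.05 in the quasi-likelihood test of edgeR, adjusted by Benjamini-Hochberg over all genes tested, 15350 in run 2 and 15103 in run 3. The targeted gene was read from 2610307P16Rik, the noncoding gene beside Sox4. It lay at 5.52 ± 0.530 CPM in the untreated controls of run 3 and at 2.87 ± 0.561 CPM in the long CASC15 knockdown (n = 4 each), with 2.60 to 3.89 CPM against 4.69 to 6.13 CPM under angiotensin II; both decreases passed the test (adjusted p 0.000832 and 0.00372). It fell with PDGF-BB as well, to 3.61 ± 0.831 CPM (adjusted p = 0.0101). The plasmid raised it from 4.03 to 8.69 CPM in the controls to 604 to 916 CPM. It was not lower in the libraries whose label says total CASC15 knockdown, at 9.73 and 8.29 CPM, than in the antisense controls, at 7.66 and 6.37 CPM. No direction below is drawn from that label, and "labelled total CASC15 knockdown" is used for those libraries.

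The cells were checked against 8 smooth muscle markers. Acta2 and Smtn were expressed, with group means of 109 to 254 CPM and 46.7 to 95.5 CPM, while the contractile markers Myh11, Tagln and Cnn1 lay at group means of at most 5.49, 3.25 and 0.162 CPM, and Cnn1 had at most 3 counts in any library of 7 of the 9 groups. Myocd, Lmod1 and Des, the other 3, had group means of at most 2.50, 1.03 and 2.14 CPM. The 6 fibroblast markers summed to 2640 to 4293 CPM, mostly Col1a1, with group means of 1379 to 3016 CPM, and Dcn, with 664 to 1897 CPM. Endothelial markers summed to 0.356 to 10.1 CPM and leukocyte markers to 0.401 to 20.5 CPM, with Cdh5 and Ptprc at or near 0. Of 4 epithelial markers Cdh1 had group means of 44.3 to 174 CPM, while those of Krt8, Krt18 and Epcam were at most 3.18, 0.269 and 0.187 CPM. By these markers the cells carried Col1a1, Dcn, Acta2, Smtn and Cdh1 and nearly lacked Myh11, Tagln and Cnn1.

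Of the 9 genes, 8 were expressed well above the filter on low counts in both runs, and Ltbp2 was not. No library of run 2 held more than 11 counts of Ltbp2 and none of run 3 more than 1. It therefore failed the filter in the fits of all libraries and was not tested there. In the libraries labelled total CASC15 knockdown 3 alternative edgeR fits did test it, and all 3 left it uncalled (adjusted p 0.0818 to 0.642). In run 2 both antisense controls had 0 counts of Ltbp2, the libraries labelled total CASC15 knockdown had 0 and 11, the plasmid controls 3, 3 and 2, and the overexpression libraries 5, 9 and 10. At this depth no difference can be read from these counts.

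Compared per kilobase of transcript, Tgfbr2 was the most abundant receptor message in the untreated controls of run 3 and Tgfbr3 the least. By the longest annotated transcript, Tgfbr2 held 63.5% ± 1.29 of the summed receptor CPM per kb, Tgfbr1 23.0% ± 1.04 and Tgfbr3 13.5% ± 1.33 (SD, n = 4), and by the median transcript length the order was the same, at 44.4% ± 1.35, 36.2% ± 1.49 and 19.4% ± 1.81. Ltbp3 exceeded Ltbp1 per kb by both lengths, at 64.1% ± 1.50 of their sum by the longest transcript and 82.4% ± 0.948 by the median. The ligands could not be ordered: Tgfb3 led by the longest transcript, with 57.0% ± 2.35, and Tgfb2 led by the median, with 45.8% ± 4.18, because the annotated transcripts of Tgfb1 and Tgfb2 range from short fragments to full length. The authors' RSEM counts split reads between genes at some loci. Tgfbr3 had counts that were not whole in 10 of 10 libraries of run 2 and 16 of 20 of run 3, and Ltbp3 in 0 of 10 and 19 of 20. Exons of Tgfb2, Tgfb3 and Ltbp2 overlap genes on the opposite strand (Gm29491, Gm37804 and Gm48008, and D030025P21Rik), and those of Tgfbr3 overlap Gm43422 on its own strand. Whether counting used strand is not given in the sources used here, so their levels are uncertain to that extent.

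The libraries of batch P19 stood apart for several members, and the calls are therefore also given without them. In run 3 the P19 library was the lowest of its group in 5 of 5 groups for Tgfb1, Ltbp1, Ltbp3 and Ltbp4. Relative to the mean of the other batches it stood at 75.6% to 96.0% for Tgfb1, 60.9% to 70.2% for Ltbp1, 53.1% to 72.9% for Ltbp3 and 70.5% to 91.8% for Ltbp4. It was the highest library in 4 of 5 groups for Tgfb2 and for Tgfb3; the exception for Tgfb2 was PDGF-BB, where it was the lowest. The P19 plasmid libraries of run 2 were likewise the lowest for Tgfb1, Tgfbr1, Tgfbr3 and Ltbp4 and the highest for Tgfb2 and Tgfb3 in 2 of 2 groups. The standard deviation within a group of run 3 was 16.7% to 22.5% of the mean for Ltbp1 and 15.2% to 28.1% for Ltbp3, but 1.22% to 8.54% for Tgfbr1. With P19 left out, the members called numbered 5 of 8 with PDGF-BB and in both long CASC15 knockdown comparisons, in place of 4, since Ltbp3 was added in each (adjusted p = 0.0102 with PDGF-BB, 1.27e-06 in the untreated knockdown and 1.34e-08 under angiotensin II). Of all genes, 48.9% were called without P19 with PDGF-BB, 40% in the untreated knockdown and 39.9% under angiotensin II. The other called members stayed called. Their log2 changes without P19 were 0.62 for Tgfb1, -0.36 for Tgfb2, -0.55 for Tgfb3 and -0.52 for Ltbp1 with PDGF-BB. In the knockdown they were -0.79 and -0.85 for Tgfbr2, -0.32 and -0.48 for Tgfbr3, 0.27 and 0.28 for Tgfbr1, and 0.81 and 0.93 for Ltbp1, in untreated cells and under angiotensin II. With overexpression in run 2, 0 of 8 members were called without P19, as with it, where 5.57% of all genes were called. With P19 left out and batch as a block, 5 members were called, beside 17.1% of all genes.

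**Figure D1:**
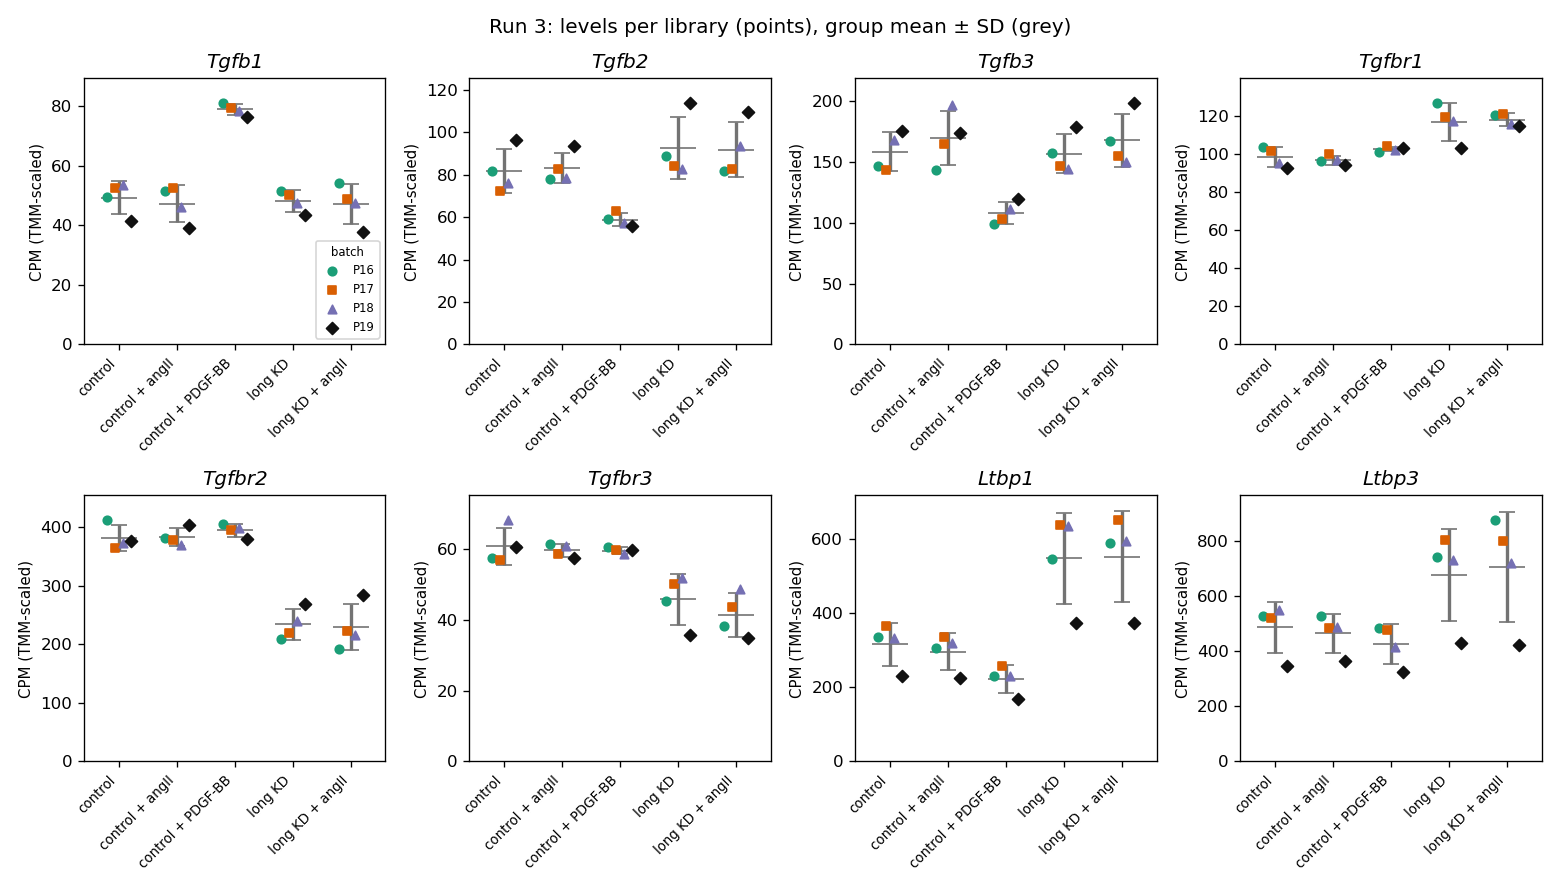
Level of 8 genes in each library of run 3 (vertical axis, TMM-scaled CPM from 0) by group (horizontal axis); symbols mark the batch, and grey bars the group mean ± SD of 4 libraries. Tgfb1 stood at 76.5 to 81.2 CPM with PDGF-BB and at 37.9 to 54.1 CPM in all other groups, Tgfbr2 was lower in both long CASC15 knockdown groups, and batch P19 (diamonds) was the lowest library of every group for Ltbp1 and Ltbp3.

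PDGF-BB shifted the ligands in opposite directions and called none of the receptors. Tgfb1, the most widely expressed isoform in the body, rose by 0.68 on the log2 scale, while Tgfb2, which depends on betaglycan for binding, fell by 0.48 and Tgfb3 fell by 0.55. Ltbp1 fell by 0.51, close to the threshold. In all, 4 of the 8 genes tested were called (1 higher and 3 lower), where 43.6% of all genes were called in this comparison, 23.6% higher and 20% lower, so the share of called members was near the background. The median absolute log2 change was 0.33 over the members and 0.33 over all genes.

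Tgfb1 read 49.5, 52.6, 53.7 and 41.4 CPM in the untreated controls (batches P16 to P19) and 81.2, 79.5, 78.3 and 76.5 CPM with PDGF-BB. Every PDGF-BB library lay above every control library, and the SD was 5.57 CPM in the controls and 1.99 CPM with PDGF-BB. The change was 0.68 ± 0.10 (SE), with an adjusted p of 2.63e-05, and Tgfb1 was higher in 4 of 4 batches.

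Tgfb2 read 81.9, 72.5, 76.0 and 96.2 CPM in the controls and 59.1, 62.9, 57.2 and 55.8 CPM with PDGF-BB. The groups did not overlap, and the highest control, P19, became the lowest treated library. The change was -0.48 ± 0.11 (SE; adjusted p = 0.00158), lower in 4 of 4 batches.

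Tgfb3 read 146, 143, 168 and 175 CPM in the controls and 99.1, 103, 111 and 119.5 CPM with PDGF-BB, again without overlap. It changed by -0.55 ± 0.10 (SE; adjusted p = 0.000258), and the log2 ratio within a batch lay between -0.60 and -0.48. By share, Tgfb1 went from 23.5% ± 3.46 to 41.4% ± 1.88 of the summed ligand CPM per kb by the longest transcript, or from 32.6% ± 4.70 to 52.1% ± 0.921 by the median, while Tgfb3 went from 57.0% ± 2.35 to 43.1% ± 2.76 or from 21.5% ± 1.33 to 14.8% ± 1.45 (SD, n = 4 each).

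The receptors passed no test under PDGF-BB. Their log2 changes were 0.06 ± 0.06 for Tgfbr1, 0.05 ± 0.09 for Tgfbr2 and -0.03 ± 0.10 for Tgfbr3 (SE), with adjusted p of 0.411, 0.695 and 0.839. Tgfbr1 stood at 98.4 ± 5.15 CPM in the controls and 102.6 ± 1.25 CPM with PDGF-BB, Tgfbr2 at 382 ± 21.6 and 395 ± 10.8 CPM, and Tgfbr3 at 60.8 ± 5.24 and 59.5 ± 0.881 CPM (SD, n = 4 each).

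Of the latent binding proteins, Ltbp1 read 335, 366, 333 and 231.5 CPM in the controls and 232, 258, 232 and 169 CPM with PDGF-BB. The groups overlapped only through the P19 control, and within batches the log2 ratio was -0.53 to -0.45. The change was -0.51 ± 0.20 (SE) with an adjusted p of 0.0489, or 3.08e-09 with the batch as a replicate block, and 7.18e-10 to 0.124 over 16 alternatives. The call was lost when the control library of P16, P17 or P18 was left out (adjusted p 0.0833, 0.105 and 0.0994), or the PDGF-BB library of P16, P18 or P19 (0.0625, 0.0741 and 0.124), and without the filter on low counts (0.122). Ltbp3 stood at 486 ± 93.7 CPM in the controls and 425.5 ± 73.9 CPM with PDGF-BB (SD, n = 4). It changed by -0.19 ± 0.22 (SE), which was not called in the fit of all libraries without the block (adjusted p = 0.517) and was called with it (0.0416; 0.00216 to 0.758 over 16 alternatives). With the block, 5 of the 8 genes were called, against 54.5% of all genes. Ltbp4 fell by 0.38 (adjusted p = 0.0203), from 419 ± 70.1 to 322 ± 49.6 CPM.

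Around these genes, members of the TGF-beta lists rose and fell with PDGF-BB, in shares to be read beside the 43.6% of all genes called. Of the 18 tested genes of latent TGF-beta storage and activation, 4 rose and 5 fell. Plaur, the urokinase receptor, rose by 0.80 and Emilin1, a matrix glycoprotein that restrains TGF-beta maturation, rose by 0.39, while Ltbp4 and the integrin subunit Itgb5 fell by 0.38 and 0.36. Of 25 signal transduction and feedback genes, 4 rose and 9 fell. Cd109, a TGF-beta co-receptor that dampens signalling, rose by 0.69 and Strap, a receptor-binding inhibitor, by 0.54, while the inhibitory Smad6 fell by 0.46 and Tgfb1i1 (Hic-5) by 0.42. Of 30 TGF-beta target genes, 8 rose and 7 fell. The proteoglycan Vcan rose by 1.75 and the protease inhibitor Timp1 by 1.44, while Id2 and Ccn2 fell by 1.07 each (all on the log2 scale, adjusted p of 2.85e-08 to 0.0455). Blocking by batch, 5 storage genes rose and 7 fell, 5 signalling genes rose and 11 fell, and 9 target genes rose and 9 fell, beside 54.5% of all genes. The lists' median log2 changes were 0.11, -0.14 and 0.11, beside -0.02 over all genes. Markers moved as well: Acta2 fell and Smtn rose among 7 tested smooth muscle markers, the fibroblast markers Col1a1 and Pi16 rose and Dcn, Lum and Pdgfra fell, Cdh1 rose and the endothelial Pecam1 fell. The fibroblast sum was 3444 to 3938 CPM in the controls and 3036 to 4293 CPM with PDGF-BB, and the smooth muscle sum 241.5 to 276 CPM and 196 to 219.5 CPM. The epithelial sum, nearly all of it Cdh1, was 97.6 to 129 CPM and 156.5 to 199 CPM, and the endothelial sum 1.25 to 2.65 CPM and 0.356 to 1.05 CPM, with Cdh5 and Erg at 0. Their part in the result was not tested. In bulk RNA, fewer cells of a type and less RNA per cell cannot be told apart.

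**Figure D2:**
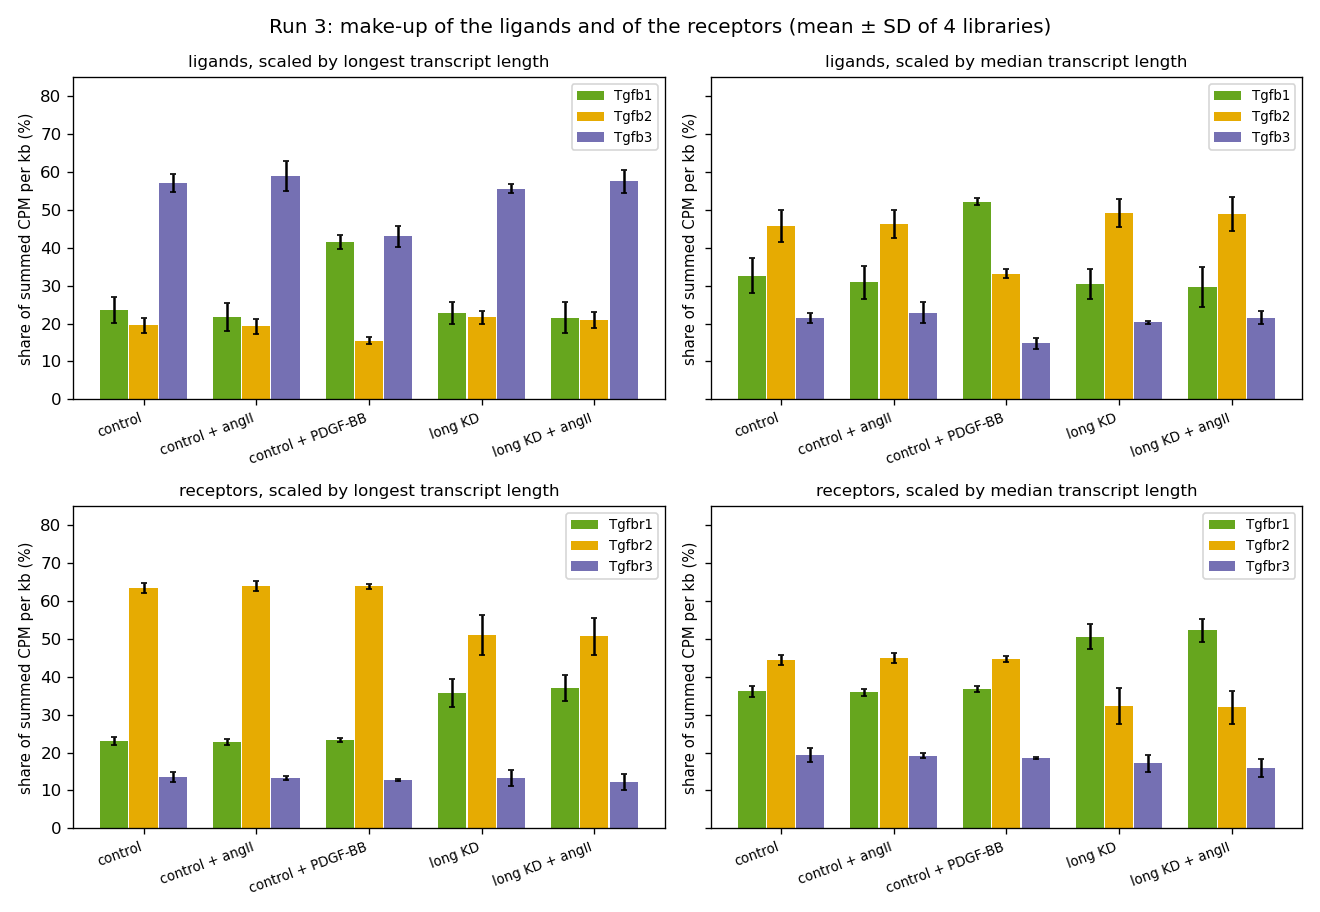
Share of each ligand (top) and each receptor (bottom) in the summed CPM per kb of its class (vertical axis, percent) for the 5 groups of run 3 (horizontal axis), with lengths from the longest (left) or the median (right) annotated transcript; bars are means and error bars SD of 4 libraries. Tgfb1 took a larger ligand share with PDGF-BB and Tgfbr1 a larger receptor share in the long CASC15 knockdown under both lengths.

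Long CASC15 knockdown changed the receptors and Ltbp1 and called none of the ligands. Tgfbr2, the ligand-binding type II receptor, fell by 0.70 and Tgfbr3 by 0.41 on the log2 scale, Tgfbr1, the type I kinase, rose by 0.25, and Ltbp1 rose by 0.80. Of the 8 genes tested 4 were called, 2 higher and 2 lower, where 25% of all genes were called, 12.3% higher and 12.8% lower. The comparison under angiotensin II, which uses other libraries on both sides, called 4 of 8 as well, against 26.7% of all genes, 13.4% higher and 13.3% lower, and the 4 were the same genes with the same signs. The median absolute log2 change of the members was 0.33 and 0.41, beside 0.23 and 0.23 over all genes.

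Tgfbr2 read 413, 364.5, 373 and 376 CPM in the untreated controls (P16 to P19) and 208.5, 220.0, 240 and 270 CPM in the knockdown. No knockdown library reached the lowest control. The change was -0.70 ± 0.09 (SE) with an adjusted p of 1.38e-05, to 61.4% of the control mean. Under angiotensin II the controls read 381, 378, 370.4 and 404 CPM and the knockdown libraries 192, 222, 217 and 284 CPM, a change of -0.74 ± 0.09 (SE; adjusted p = 6.90e-06) to 59.7%. In both comparisons Tgfbr2 was lower in 4 of 4 batches, and the P19 knockdown library lay highest of its group.

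Tgfbr3 read 57.5, 56.9, 68.3 and 60.4 CPM in the untreated controls and 45.4, 50.1, 51.9 and 35.6 CPM in the knockdown, without overlap. It changed by -0.41 ± 0.10 (SE; adjusted p = 0.00589). Under angiotensin II it read 61.4, 58.6, 60.9 and 57.5 CPM in the controls and 38.2, 43.6, 48.8 and 34.7 CPM in the knockdown, a change of -0.53 ± 0.10 (SE; adjusted p = 0.000789), again without overlap. Tgfbr3 is one of the genes whose counts were split by RSEM.

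Tgfbr1 moved the other way and by less. It read 103.6, 101.7, 95.3 and 92.8 CPM in the untreated controls and 127, 119, 117 and 103 CPM in the knockdown, and the P19 knockdown library lay inside the control range. The change was 0.25 ± 0.06 (SE; adjusted p = 0.00327). Under angiotensin II the controls lay at 94.0 to 99.8 CPM and the knockdown libraries at 114.6 to 121 CPM, without overlap, a change of 0.29 ± 0.06 (SE; adjusted p = 0.000890). Tgfbr1 was higher in 4 of 4 batches each time. Together these shifts took the receptor make-up by the longest transcript from 63.5% ± 1.29 Tgfbr2 and 23.0% ± 1.04 Tgfbr1 to 51.0% ± 5.18 and 35.7% ± 3.59 in untreated cells. By the median transcript Tgfbr2 went from 44.4% ± 1.35 to 32.3% ± 4.64 and Tgfbr1 from 36.2% ± 1.49 to 50.5% ± 3.25, so that their order turned by that length and not by the other (SD, n = 4 each).

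Ltbp1, which cross-links latent TGF-beta into the matrix, read 335, 366, 333 and 231.5 CPM in the untreated controls and 546, 638, 636.5 and 375 CPM in the knockdown. The groups did not overlap, and P19 was the lowest library on both sides. The change was 0.80 ± 0.20 (SE; adjusted p = 0.00703), to 173.5% of the control mean, and the log2 ratio within a batch was 0.70 to 0.94. Under angiotensin II the controls read 307, 335, 320.4 and 224.5 CPM and the knockdown libraries 589, 653.5, 596 and 373.5 CPM, a change of 0.90 ± 0.20 (SE; adjusted p = 0.00300). Ltbp1 thus rose with the knockdown and fell with PDGF-BB; both comparisons in untreated cells share the same 4 control libraries.

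Ltbp3 was called in both comparisons with the block, and without it the call turned on the P19 libraries and, under angiotensin II, on the settings. It read 528, 520.1, 549.7 and 347 CPM in the untreated controls and 742.5, 804, 729 and 429 CPM in the knockdown, so that P19 was far below the other batches on both sides. The change of 0.48 ± 0.22 (SE) was not called in the fit of all libraries without the block (adjusted p = 0.132) and was called with it (6.07e-05; 4.29e-08 to 0.341 over 16 alternatives). Under angiotensin II the controls read 528, 484, 486 and 364 CPM and the knockdown libraries 877, 800.0, 720 and 424 CPM. That change was 0.60 ± 0.22 (SE; adjusted p = 0.0567, or 6.09e-06 with the block; 2.22e-10 to 0.174 over 16 alternatives). Leaving out the P19 knockdown library alone gave adjusted p of 0.0271 in untreated cells and 0.00696 under angiotensin II. Under angiotensin II DESeq2 and a filter on mean CPM, neither with the block, called Ltbp3 as well (adjusted p of 0.0181 and 0.0480). Blocked by batch, 5 of the 8 genes were called in each comparison, beside 40.6% of all genes for untreated cells and 41.3% for cells given angiotensin II. Ltbp4 was not called in either (log2 changes -0.24 and -0.14, adjusted p 0.171 and 0.463) but passed in untreated cells when batch was blocked (0.0212).

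The ligands passed no test in the long CASC15 knockdown, with or without the block. Tgfb1 changed by -0.03 ± 0.10 and Tgfb3 by -0.02 ± 0.10 (SE), and Tgfb2 by 0.18 ± 0.11, with adjusted p of 0.860, 0.932 and 0.249. Under angiotensin II the changes were -0.01 ± 0.11, -0.02 ± 0.10 and 0.14 ± 0.11, with adjusted p of 0.961, 0.921 and 0.357. Tgfb2 was higher in 4 of 4 batches in both comparisons, at 92.5 ± 14.6 CPM against 81.7 ± 10.4 CPM in untreated cells and 91.9 ± 12.9 CPM against 83.1 ± 7.22 CPM under angiotensin II (SD, n = 4). In P17 under angiotensin II, however, the libraries were nearly equal, at 82.6 and 82.5 CPM (log2 ratio 0.0017).

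Other parts of the pathway changed with the long CASC15 knockdown too. Of 18 tested storage and activation genes 3 rose and 8 fell in untreated cells, and 3 rose and 7 fell under angiotensin II, beside 25% and 26.7% of all genes called. Itgb8, the integrin subunit that binds latent TGF-beta, rose by 2.01 and 1.72 and Emilin1 by 0.48 and 0.40, while Plaur fell by 1.07 and 0.91. Fibronectin (Fn1), onto which Ltbp1 is deposited, fell by 0.76 in untreated cells and the protease Plau fell by 0.75 under angiotensin II. Of 25 signalling genes 3 rose and 6 fell, or 2 and 6. Bambi, a decoy receptor, rose by 2.01 and 1.97, and Smad3 by 0.26 and 0.20. The co-receptor endoglin (Eng) fell by 0.41 and 0.42, Smad6 fell by 0.42 in untreated cells and Skil fell by 0.37 under angiotensin II.

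Of 30 target genes 5 rose and 10 fell in untreated cells, and 5 rose and 11 fell under angiotensin II. The collagens went apart: Col3a1 rose by 1.67 and 1.79, while Col1a2 fell by 1.76 and 1.63, in untreated cells from 1324 ± 157 CPM to 390.5 ± 52.5 CPM (SD, n = 4). Snai2 rose by 0.31 and 0.28, and Adam12 fell by 1.12 and 1.31. These changes are on the log2 scale, with adjusted p of 3.09e-09 to 0.0469. Blocking by batch, the storage genes called were 3 higher and 9 lower in untreated cells and 4 and 8 under angiotensin II. The signalling genes were 3 and 9, or 4 and 7, and the target genes 7 and 12, or 8 and 13, beside 40.6% and 41.3% of all genes. The lists' median log2 changes were -0.18, -0.02 and -0.09 in untreated cells, beside 0.02 over all genes. Among the markers, Myh11 and Smtn rose and Myocd fell of 7 tested for smooth muscle, and the smooth muscle sum was 241.5 to 276 CPM in the controls and 231.0 to 329 CPM in the knockdown, or 246 to 289 CPM and 254 to 336 CPM under angiotensin II. Of 5 tested fibroblast markers Pdgfra and Lum rose and Col1a1 and Pi16 fell, with a sum of 3444 to 3938 CPM and 3167 to 3563 CPM; under angiotensin II, where Lum was not called, the sums were 3591 to 3906 CPM and 3066 to 3610 CPM. Cdh1 fell from 113 ± 12.4 to 46.2 ± 15.5 CPM (SD, n = 4) and Krt8 fell too, while Epcam was at 0 in all knockdown libraries. The endothelial marker Vwf rose, with Cdh5 and Erg at 0 in untreated controls and knockdown. Vwf and Myh11 were near the floor in untreated cells. Vwf went from 0.144 ± 0.131 to 0.688 ± 0.232 CPM and Myh11 from 0.0639 ± 0.0479 to 0.94 ± 0.53 CPM (SD, n = 4). The part of all these markers in the result was not tested.

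Angiotensin II itself called none of the 8 genes, neither in control cells nor in the long CASC15 knockdown, and 0% of all genes were called in either comparison, with and without the block. The members' log2 changes ran from -0.09 to 0.10 in control cells and from -0.15 to 0.10 in the knockdown. At an unadjusted p under 0.05 there were 0 of the 8 members and 156 of 15103 genes in control cells, and 0 members and 174 genes in the knockdown. The interaction, which asks whether the knockdown effect differed with angiotensin II, called 0 members and 0% of all genes, with log2 values from -0.12 to 0.12 (SE 0.08 to 0.32) and 0 members and 166 genes at an unadjusted p under 0.05. DESeq2 called 0 members in all 3, and 0.00663% of all genes in control cells, 0% in the knockdown and 0.00663% for the interaction.

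**Figure D3:**
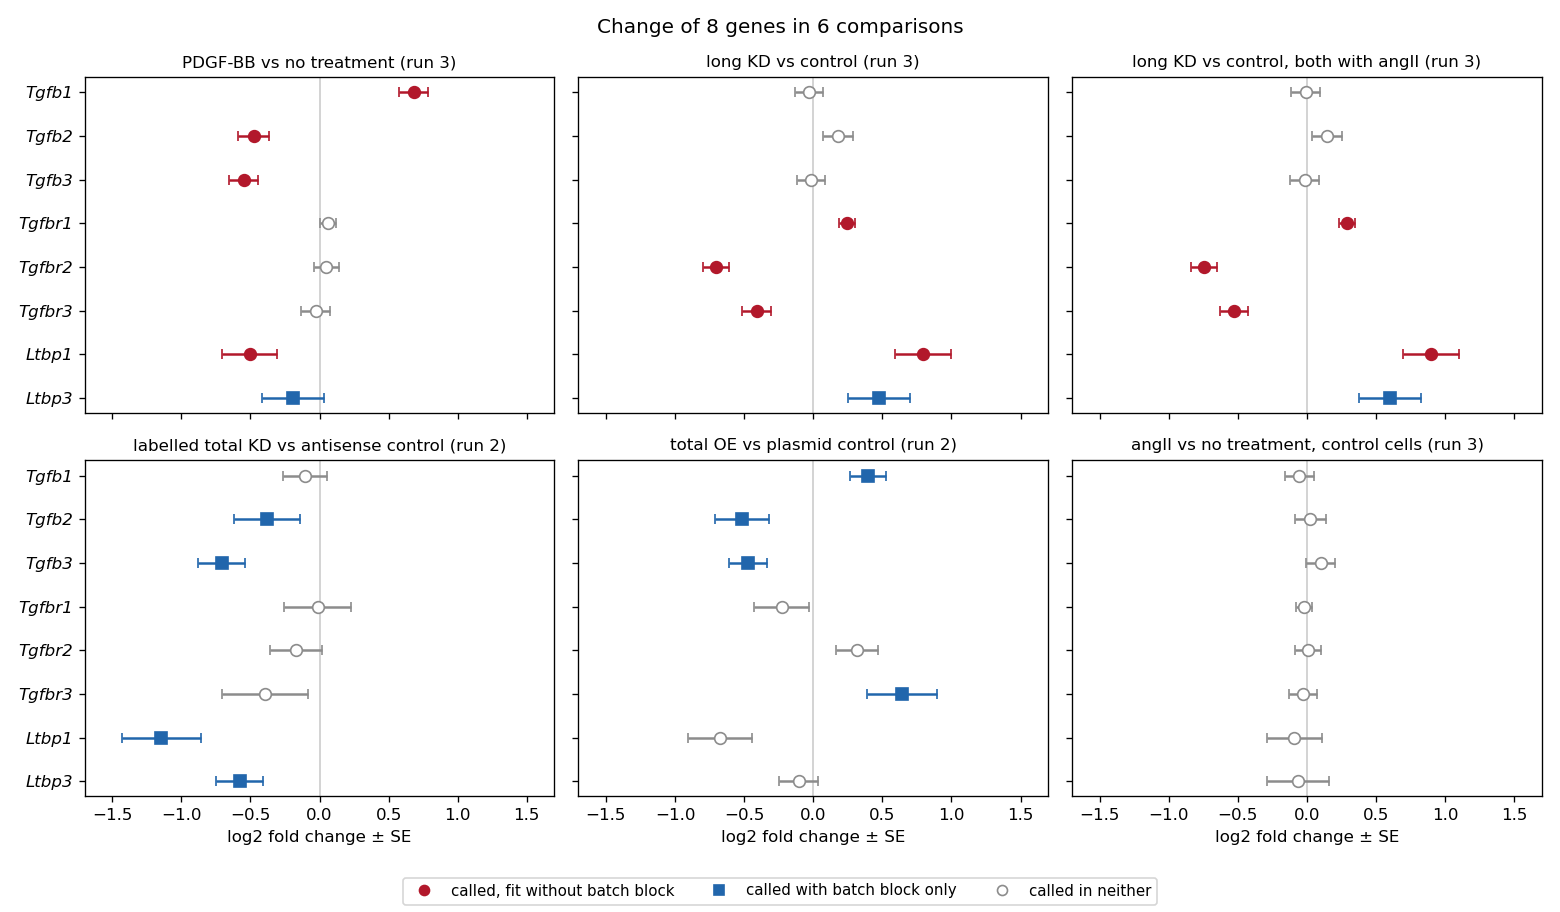
Log2 fold change ± SE (horizontal axis) of 8 genes (vertical axis) in 6 comparisons; filled red points were called without the batch block, blue squares with it only, and open grey points in neither. Without the block, the ligands and Ltbp1 were called with PDGF-BB and the receptors and Ltbp1 with the long CASC15 knockdown. The block added Ltbp3 with PDGF-BB and in both long CASC15 knockdown comparisons, and 4 genes in each run 2 comparison shown. No gene was called with angiotensin II in either fit.

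In run 2, where groups held 2 or 3 libraries, edgeR called no member in the fit of all libraries without the block and with the filter on low counts. In the libraries labelled total CASC15 knockdown, 0 of 8 members were called, where 2.07% of all genes were called; with the block 4 were, all lower, against 14.4% of all genes. Ltbp1 read 416 and 296 CPM in these libraries and 727 and 847 CPM in the antisense controls (P17 and P18), a change of -1.15 ± 0.29 (SE). Its adjusted p was 0.0844, or 0.0279 with the block (4.83e-07 to 0.647 over 10 alternatives). Tgfb3 read 147 and 123 CPM against 207 and 234.5 CPM, a change of -0.71 ± 0.17 (SE; adjusted p = 0.0715, 0.00132 with the block, 0.00132 to 0.593 over 10 alternatives).

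Ltbp3 and Tgfb2 passed with the block too. Ltbp3 read 639 and 566 CPM against 830.0 and 968.5 CPM, a change of -0.58 ± 0.17 (SE; adjusted p = 0.147, or 0.0175 with the block, 0.0175 to 0.798 over 10 alternatives). Tgfb2 read 71.5 and 63.1 CPM against 92.1 and 83.2 CPM (-0.38 ± 0.24, SE; adjusted p = 0.594, or 0.0250 with the block, 0.0250 to 1 over 10 alternatives). In each of these 4 genes the groups did not overlap, but neither did they in Tgfbr2 and Tgfbr3, which were called in neither fit. With 2 libraries on each side, and no share over all genes counted, nothing is drawn from this. At an unadjusted p under 0.05 there were 3 of the 8 members, and 1975 of 15350 genes, and DESeq2 called 3 members, against 4.69% of all genes. Of the pathway lists, 2 of 29 tested target genes rose, the chromatin protein Hmga2 (0.95, adjusted p = 0.0361) and Myh11 (2.47, adjusted p = 0.0239), and 0 of 20 storage and 0 of 25 signalling genes were called. With the block the counts were 4 higher and 4 lower, 0 and 4, and 2 and 0, beside 14.4% of all genes. The leukocyte markers Cd68 and Csf1r rose in the same libraries: the 5 leukocyte markers summed to 16.9 to 20.5 CPM, against 0.401 to 0.741 CPM in the antisense controls, while Ptprc and Cd3e had 0 counts. Their part in the result was not tested.

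Total CASC15 overexpression called 0 of 8 members, where 1.65% of all genes were called, and 4 with the block, 2 higher and 2 lower, against 17.7%. Tgfb1 read 110, 97.5 and 89.9 CPM with overexpression and 81.2, 79.0 and 65.8 CPM in the plasmid controls (P17 to P19). The groups did not overlap, and the change of 0.40 ± 0.13 (SE) had an adjusted p of 0.195, or 0.00368 with the block (0.00368 to 0.392 over 14 alternatives). Tgfb3 read 120, 128 and 157 CPM against 172, 179 and 212 CPM, without overlap (-0.47 ± 0.14, SE; adjusted p = 0.143, 0.00355 with the block, 0.00355 to 0.384 over 14 alternatives).

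Tgfb2 and Tgfbr3 overlapped between the groups and were called with the block. Tgfb2 read 66.4, 74.3 and 98.7 CPM against 95.7, 98.3 and 149 CPM (-0.52 ± 0.20, SE; adjusted p = 0.255, 0.00181 with the block, 0.00181 to 0.510 over 14 alternatives). Tgfbr3 read 93.4, 130 and 60.9 CPM against 54.0, 76.6 and 51.5 CPM (0.64 ± 0.25, SE; adjusted p = 0.272, 0.0104 with the block, 0.000769 to 0.606 over 14 alternatives). In both genes all 3 batches moved the same way. Ltbp1 was lower in 3 of 3 batches, at 374, 575 and 417 CPM against 735, 913.5 and 535 CPM, and was called neither without nor with the block (-0.68 ± 0.23, SE; adjusted p = 0.209 and 0.0710). Over 14 alternatives its adjusted p ran from 0.000684 to 0.509, and 1 of them called it, while 13 did not. Tgfbr2 was higher in 2 of 3 batches, at 437, 517 and 356 CPM against 298, 364 and 393 CPM. Its change of 0.31 ± 0.15 (SE) was called neither without nor with the block (adjusted p = 0.373 and 0.150). Over 14 alternatives the change ran from 0.18 to 0.53, and 13 of them did not call it (adjusted p 0.00513 to 0.717). At an unadjusted p under 0.05 there were 5 of the 8 members and 2295 of 15350 genes, and DESeq2 called 1 member, against 5.14% of all genes. Of the lists, Adam12 rose by 1.67 and Tgfb1i1 fell by 0.60 (log2; adjusted p 0.0483 and 0.0193), the only calls among 29 target, 25 signalling and 20 storage genes. With the block 7 target genes were higher and 5 lower, 1 and 3 of the signalling genes, and 1 and 7 of the storage genes, beside 17.7% of all genes.

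The 2 kinds of control, plasmid and antisense oligonucleotide, were compared as a background for both. Of the members, 0 of 8 members were called, where 1.18% of all genes were called, and 0 with the block, against 2.99%. The plasmid controls included batch P19, which the antisense controls lacked. The members' log2 differences ran from -0.23 to 0.38, or from -0.34 to 0.37 with the block. The highest without the block was that of Tgfb2, which read 149 CPM in the P19 plasmid control and 95.7 and 98.3 CPM in the others. It was 0.17 with the block. At an unadjusted p under 0.05 there were 0 members and 1444 genes, or 2 members and 2465 genes with the block.

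**Figure D4:**
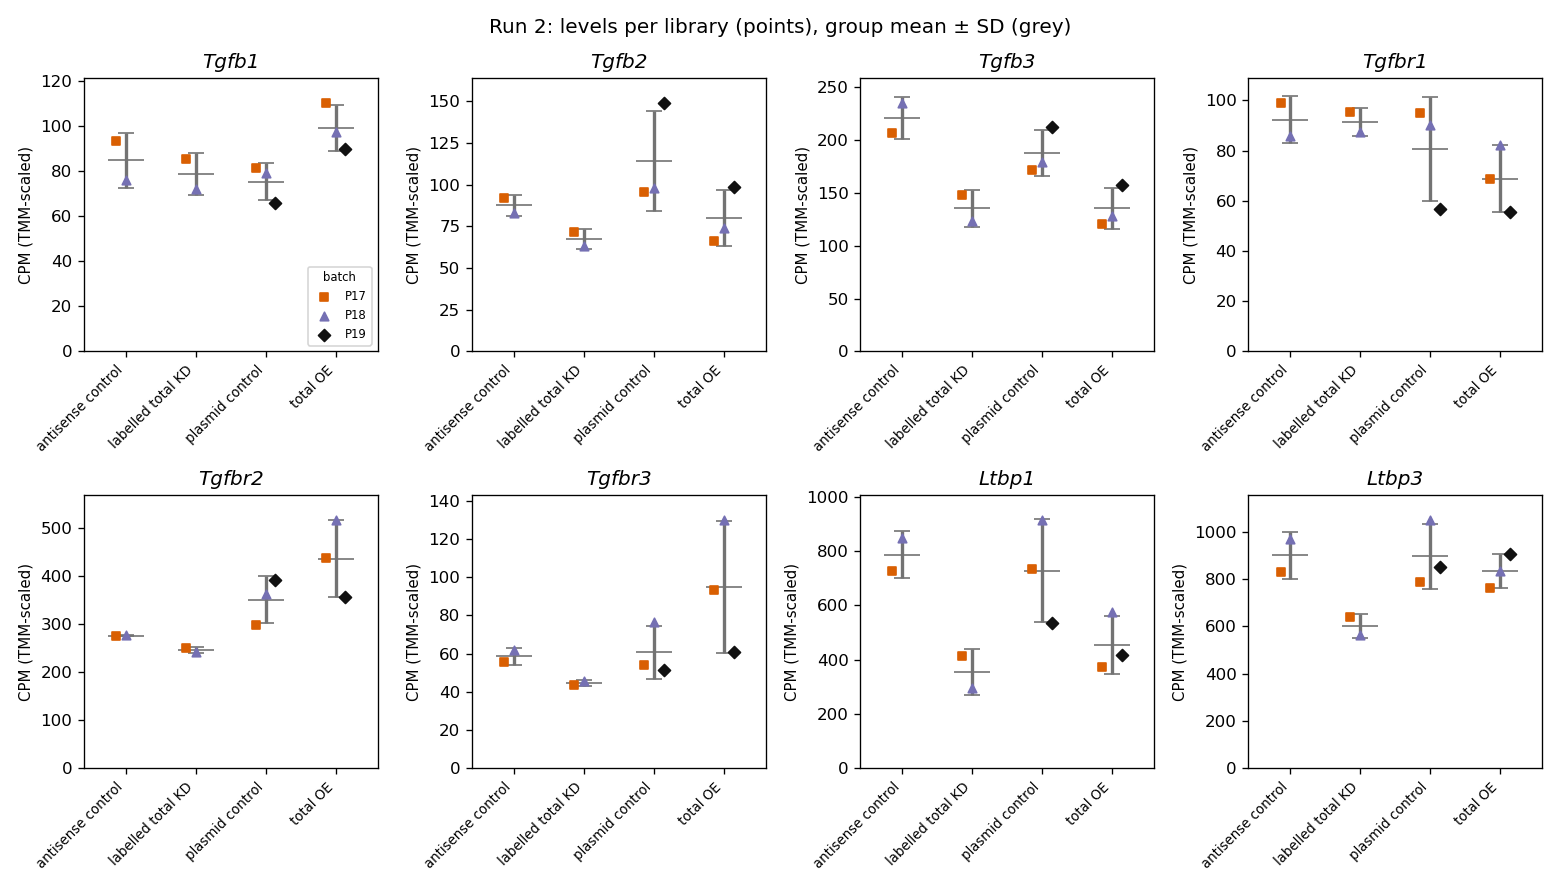
Level of 8 genes in each library of run 2 (vertical axis, TMM-scaled CPM from 0) by group (horizontal axis); symbols mark the batch, and grey bars the group mean ± SD of 2 or 3 libraries. Ltbp1 and Tgfb3 were lower in the libraries labelled total CASC15 knockdown than in both antisense controls, and batch P19 lay highest for Tgfb2 and Tgfb3 in both plasmid groups.

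Genes whose log2 CPM followed each member most closely over the 20 libraries of run 3 were listed among 10127 candidates. All points share the same libraries, batches and groups, so the coefficients are descriptions. Tgfb1 was followed most closely by Sema4b (Pearson r = 0.969), Mdm1 (0.955) and Ccdc77 (0.950), Tgfb2 by Plcb4, Sspn and Lypd1 (0.953, 0.950 and 0.949) and Tgfb3 by Serinc5, Maf and Csf1 (0.935, 0.934 and 0.931). Among the receptors, Tgfbr1 was closest to Matn2, Mbtps1 and Gas7 (0.948, 0.941 and 0.941), Tgfbr2 to Cd55, Ms4a4d and Efemp1 (0.989, 0.981 and 0.976) and Tgfbr3 to Slc25a36, Usp45 and Zmynd11 (0.924, 0.919 and 0.918). Ltbp1 was closest to Ddx17, Slc27a1 and Mau2 (0.988, 0.988 and 0.984) and Ltbp3 to Unk, Cuedc1 and Zfp395 (0.981, 0.978 and 0.976).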

How the data were processed

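Per the labels, cells were cultured mouse aortic smooth muscle cells, and RNA was sequenced in runs 2 and 3. The authors deposited expected counts per gene; the submitters' processing notes name STAR 2.7.11b and RSEM 1.3.1, and the builds GRCm39 and mm10 without a role. Such counts are not scaled to depth, and reads that fit several genes are divided among them. A GENCODE annotation gave a symbol to 51486 of 78334 identifiers, which held 98.7% of all counts.

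Expected counts were rounded, filtered with filterByExpr (minimum count 10, minimum total 15), scaled with TMM factors and fitted per run with edgeR 4.0.16's robust quasi-likelihood test in R 4.3.3, a coefficient per group, two-sided, with Benjamini-Hochberg adjustment over all genes tested and a threshold of 0.05. Every adjusted p comes from this test unless DESeq2 (1.42.0) is named. The biological coefficient of variation, common to all genes, was 0.232 (run 2) and 0.148 (run 3). Pairs of libraries within a group differed by more than counting noise in 38 of 38 pairs.

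In the labels the replicate number follows the batch, from P17 for replicate 1 in run 2 and from P16 in run 3. After group means were removed, same-batch libraries correlated on average at 0.23 in run 2 and 0.197 in run 3, and other pairs at -0.121 and -0.0606. The fit with the batch as a replicate block is therefore given beside each member whose call it changes and beside the counts of members and pathway genes called.

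The alternatives were this block, DESeq2, its size factors in edgeR, no filter, a filter on mean CPM at 1, a fit with only the groups compared, an absolute log2 change of at least 1, and each library left out; leaving out batch P19, with and without the block, was added after the data were seen. Ranges over alternatives leave out the log2 change of at least 1. Levels between genes were compared per kb of the longest and the median GENCODE transcript. Besides the members and the targeted gene, the text names from each pathway list the 2 called genes with the largest rise and the 2 with the largest fall, at a mean CPM of at least 5, and per member the 3 genes with the highest Pearson r (log2 of CPM + 0.5). Ltbp4 in comparisons outside this rule, and the called cell type markers, were named after their values were seen. The members and lists were chosen with earlier results of these data known.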

Additional observations from a re-analysis of the deposited data

Results flagged for a closer look

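One library stood apart from its group. Ltbp3 read 346.9 CPM in the P19 untreated control of run 3, and the other 3 controls read 520.1 to 549.7 CPM, so that the gap to the nearest was 0.854 of the whole range, above Dixon's 95% critical value for 4 values. This was 1 of 40 sets of 4 values tested, 8 genes in each of 5 groups that share their libraries, and chance alone marks about 1 in 20.

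Ltbp1, Ltbp3 and Tgfb2 had changes of opposite sign in the libraries labelled total CASC15 knockdown (run 2) and in the long CASC15 knockdown of untreated cells (run 3), in every batch of each. The log2 change was -1.15 and 0.80 for Ltbp1, -0.58 and 0.48 for Ltbp3, and -0.38 and 0.18 for Tgfb2. In the fit of all libraries without the block, only Ltbp1 in the long CASC15 knockdown was called. With it, all these changes were called except that of Tgfb2 in the long CASC15 knockdown (adjusted p = 0.249, or 0.0606 with the block). The difference itself was not tested, the runs were scaled separately, and the targeted gene was not lower in the first set of libraries.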

How the results depend on the processing

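Of 359 alternative values for the members called with or without the replicate block, 303 kept their side of the threshold, 37 newly passed, 19 no longer passed and 0 changed sign. In the labelled total CASC15 knockdown, the members called numbered 4 with the replicate block, 3 with DESeq2, 2 without the filter and 3 with only the groups compared, in place of 0, beside 14.4%, 4.69%, 4.44% and 7.34% of all genes. With overexpression they numbered 4 with the block, 1 with DESeq2, 4 without the filter and 5 with P19 left out and the block, beside 17.7%, 5.14%, 4.56% and 17.1% of all genes. Requiring an absolute log2 change of at least 1 left 0 in the long CASC15 knockdown, with and without angiotensin II, and with PDGF-BB, beside 5.12%, 5.36% and 10.2% of all genes. The cause was not tested. Ltbp2 was too low to pass the filter on low counts in the fits of all libraries.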
